A study of Mus musculus with 40 samples.

Results

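Gm4951, F830016B08Rik and Iigp1 are interferon GTPase genes of 1 cluster on mouse chromosome 18, which also holds Gm4841. The data described here are the repeat copies of that cluster, that is, the annotated copies of transposable elements whose start lies between 60200000 and 60400000 on chromosome 18 of the mm10 build. There are 150 such copies among the 835636 in the table. The interval was drawn around one of them, a copy of ERVB4_1-I_MM (an internal part of an endogenous retrovirus) at chr18:60288796-60289913, and was chosen by its signal in 2 groups, low in CBA tumours and high in the Balb/c-2 rep2 libraries. Every comparison with these groups is a description with no test. Their libraries do enter the estimate of the spread in each test below, and the counts without them are given beside the calls. Of the 150 copies, 29 had a mean signal of at least 5 over the 40 libraries and entered the tests, out of 33215 copies tested in all. These 29 held 94% of the signal of the interval.

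The study passaged YUMM1.7 cells, a mouse melanoma line, from mouse to mouse and sequenced poly(A) RNA from the cells and from cells of the resulting tumours, which had been dissociated and cultured for 1 to 3 passages. The groups were YUMM1.7 cells (3 cultures of 1 line), tumour passages F0 (4 tumours), F1 (4), F2 (5), N2.1 (5), N2.2 (3) and N2.3 (3), then Balb/c-1 (4), Balb/c-2 (3), a second library set of the same 3 tumours (Balb/c-2 rep2), and CBA (3). All libraries share the YUMM1.7 origin, and their labels give no treatment other than the passage. The labels use strain names for the last groups and do not give the age or sex of the mice or the meaning of N2. Each passage was made once, so the p-values below cover the spread between tumours of a passage, or between cultures for YUMM1.7 cells, and not the spread between repeated passages. Signal is the deposited normalised read count of a repeat copy. The libraries held 1280522 to 2976730 reads over all copies and 5 to 8584 reads over the interval, so the lowest libraries rest on a handful of reads. Markers of other cell types were followed as the sums of their exon repeat copies. The sums were 0 to 1.88 over the 40 libraries for T and B cells (3 of 10 markers with exon copies), 0 to 17.1 for leucocytes (6 of 10) and 0 to 3.26 for endothelium (2 of 10). With so few markers measured, these low sums do not show that such cells were absent. The fibroblast sum (7 of 10) was 629 to 3337, and 1645 to 2779 in the YUMM1.7 cultures themselves. Only 2 of the 10 melanocyte markers, Tyr and Mlana, had exon copies, and their sum was 0 to 1.15, so the melanoma label could not be checked with them.

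Immunity-related GTPases are proteins that interferon induces in mouse cells. They assemble on the vacuoles in which intracellular parasites and bacteria live and break those vacuoles open. Iigp1, also named Irga6, is the best studied effector among them, while Irgm1 and Irgm2, which lie on another chromosome, are regulators that hold the effectors inactive on the membranes of the cell. RefSeq gives the 4 genes of the interval the names Ifgga1 (Iigp1), Ifgga2 (Gm4951), Ifgga3 (Gm4841) and Ifgga4 (F830016B08Rik).

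The 29 tested copies were spread over the transcribed part of the cluster. In the GENCODE M21 annotation 9 lay in a 3′ UTR, 1 in a coding exon, 1 in an exon of a noncoding RNA, 17 in introns and 1 between genes. Gm4951 (chr18:60212080-60247820, plus strand) carried a B1_Mus1, an MTE2a and a B4 copy in its 3′ UTR, with mean signals of 85.8, 82.3 and 73.2. A B3 copy with a mean signal of 64.8 began 129 bases past the GENCODE end of Gm4951, inside its RefSeq span. Iigp1 (chr18:60376027-60392634, plus strand) ended in the same order of elements, an MTE2a copy (mean signal 271), a B4A copy (190) and a B3 copy (239). The gaps between these 3 copies were 75 and 193 bases in Iigp1 and 70 and 196 bases in Gm4951. The coding sequences of Gm4951 and Iigp1 were 86.1% identical when aligned, their MTE2a copies 77.8% and their B4 and B4A copies 88.3%. Reads shared between the 2 genes are therefore possible, the sources used here do not say how such reads were counted, and the split of signal between Gm4951 and Iigp1 is uncertain to that extent.

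F830016B08Rik (chr18:60293380-60303016, plus strand) lay in a different setting. A MER73 copy (mean signal 11.3) sat in its coding exon. An ORR1B2 copy with ORR1B2-int (25.2) and an L1MdA_VII copy (193) sat in its 3′ UTR. The L1MdA_VII copy, a long interspersed element at chr18:60302236-60308420, had 781 bases in the exon and ran 5404 bases past the GENCODE end of the gene. Copies with signal lay over a stretch wider than the annotated gene: the 13 tested copies from the first ETnERV2-int copy at 60283765 to the IAPLTR4 copy at 60309845, over 26.4 kb, had mean signals per kb of 25.6 to 73.0. The stretch also held copies below the limit. In the intron of F830016B08Rik, the 6 copies from ID_B1 to MTD had 0.218 (RMER1A) to 4.92 (Lx5b) per kb, and upstream a short ERVB4_1-I_MM copy had 14.3 and an L1MdA_VII copy 12.6 per kb. The ERVB4_1-I_MM copy at 60288796, around which the interval was drawn, was one of the 13 tested copies. It had a mean signal of 45.0 and 40.3 per kb. It starts 57 bases after the RefSeq start of F830016B08Rik (chr18:60288739-60303823). In GENCODE it lies upstream of that gene and in an intron of AC132320.1, a noncoding RNA on the minus strand. The sources used here do not give the strand of the counts, so signal of F830016B08Rik and of AC132320.1 over these copies cannot be told apart.

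**Figure D1:**
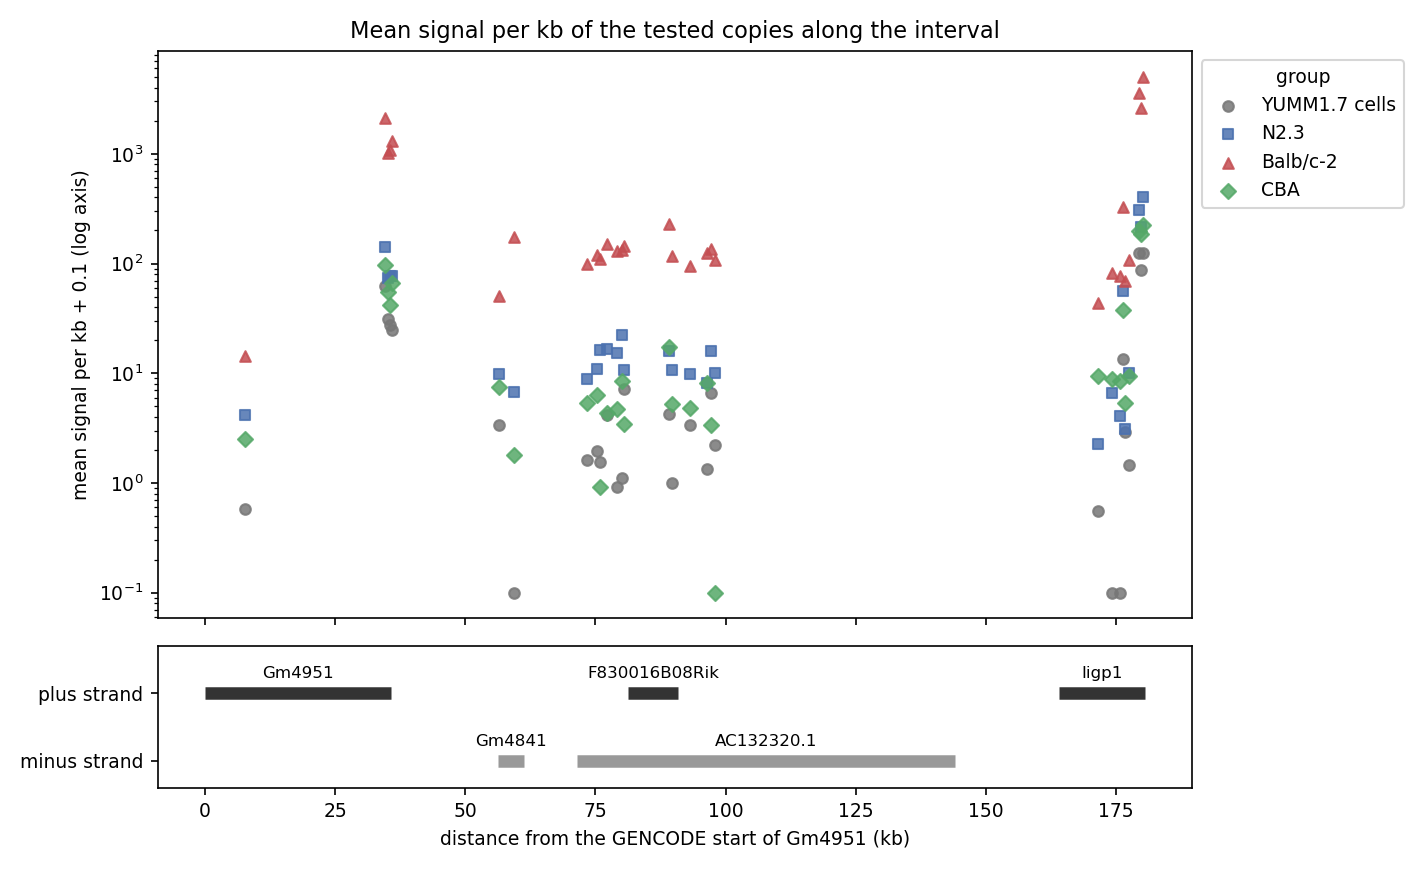
Mean signal per kb of each tested copy (log axis, 0.1 added) against distance in kb from the GENCODE start of Gm4951, for YUMM1.7 cells, N2.3, Balb/c-2 and CBA. Bars mark the genes by strand. Balb/c-2 (3 tumours) stands above the other 3 groups over the whole transcribed stretch, and tested copies with 25.6 to 73.0 signal per kb over all libraries lie on both sides of F830016B08Rik.

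The other tested copies ranged more widely. In Gm4841 (chr18:60268305-60273272, minus strand), the fourth GTPase gene, an RLTR44C copy in the 3′ UTR had a mean signal of 8.25 and an intronic Lx3B copy 9.05. The only tested copy in an intron of Gm4951, L1MdN_I, had a mean of 7.73. In introns of Iigp1 the copies Lx8, MER65-int, LTR72_RN, B1_Mur4, RMER15-int and L1MA9 had means of 6.93 to 16.0. Around F830016B08Rik, RLTR1A2_MM (16.1), the second ETnERV2-int copy (14.1), the Lx8b copies (52.3 and 19.4), ORR1A2 (10.4), ORR1B2-int (10.3), RMER12B (43.0) and IAPLTR4 (7.72) completed the set, beside the first ETnERV2-int copy (90.8). The copies just above the limit of 5 were LTR72_RN (6.93), MER65-int (7.37) and IAPLTR4 (7.72), and those just below it were RSINE1 (4.94), Lx8 at 60212692 (4.66) and a second L1MdA_VII at 60288431 (4.59).

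The 121 untested copies had means of 0.023 to 4.94, and 89 of them were below 1. Signal was found in at least 1 YUMM1.7 library for 23 of them and in at least 1 Balb/c-2 library for 98. The limit of 5 was itself reached through the Balb/c groups for some members. Over the 27 libraries from YUMM1.7 cells to N2.3, 19 of the 29 had a mean of at least 5 and 10 did not, so counts of called copies among the 29 do not stand for all 150.

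For each gene the signals of its exon copies were added. Per kb of repeat, the means were 341 for Gm4951 (3 copies, 707 bases), 232 for Iigp1 (10 copies, 3035 bases), 32.4 for F830016B08Rik (3 copies, 7067 bases, mostly L1MdA_VII) and 15.4 for Gm4841 (3 copies, 993 bases).

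The Iigp1 sum was low in YUMM1.7 cells, at 9.68, 99.95 and 141. F0 tumours A to D gave 465, 4.34, 22.5 and 117. F1 tumours A, B, D and E gave 7.03, 541, 32.1 and 46.1. The first passages thus held tumours below every YUMM1.7 culture and tumours above every one of them. F2 tumours A to E gave 182, 219.7, 342.5, 939 and 32.7, and N2.1 tumours A to E gave 303, 1118, 189, 111 and 652. N2.2 tumours gave 136, 115 and 231, and N2.3 tumours 226, 347 and 109.8. The ranges of these groups overlapped. In Balb/c-1 the 4 tumours gave 3215, 919, 2607 and 633, all above every N2.2 and N2.3 tumour. Balb/c-2 tumours A, B and C gave 4560, 2677 and 948, and the second libraries of the same tumours gave 2858, 1959 and 608, in the same order. CBA tumours gave 26.2, 351 and 80.9, back within the range of the groups before Balb/c-1.

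Gm4951 followed the same course. Its sum was 0.968, 36.3 and 38.6 in YUMM1.7 cells. F0 tumours A to D gave 159.9, 0, 1.02 and 28.0, and F1 tumours A, B, D and E gave 0, 204, 5.35 and 10.3. A sum of 0 allows up to 3 reads, which is a signal of 2.60 in F0 tumour B and 2.63 in F1 tumour A, and this limit covers counting error only. F2 tumours A to E had sums of 60.2, 76.5, 117, 321 and 4.54, and N2.1 tumours A to E 134, 341, 55.1, 29.2 and 348. N2.2 tumours had 31.0, 56.1 and 73.1 and N2.3 tumours 70.3, 102 and 14.4. The Balb/c-1 values were 1057, 337, 745 and 241. All 4 exceeded the highest N2.3 value. Balb/c-2 gave 1453, 832 and 410.0, its second libraries 1074, 717 and 345, and CBA 8.37, 93.5 and 22.3.

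The F830016B08Rik sum was 1.94, 34.3 and 28.0 in YUMM1.7 cells. F0 tumours A to D gave 245, 0, 6.13 and 40.6, and F1 tumours A, B, D and E gave 0, 164, 12.8 and 20.7. The 2 tumours at 0 were again F0 B and F1 A. F2 tumours A to E gave 82.0, 76.5, 87.5, 585 and 6.36, N2.1 tumours 112, 374, 64.4, 14.1 and 289.7, N2.2 tumours 15.2, 65.3 and 64.8, and N2.3 tumours 97.4, 106.5 and 7.57. Balb/c-1 gave 1135, 216, 554 and 110.3, of which the lowest lay just above the highest N2.3 tumour. Balb/c-2 gave 713, 1155 and 266, its second libraries 986, 1013 and 312, and CBA 8.37, 57.6 and 41.0. Tumour B was the highest Balb/c-2 tumour for F830016B08Rik in both sets of libraries, while tumour A was the highest for Iigp1 and Gm4951 in both.

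**Figure D2:**
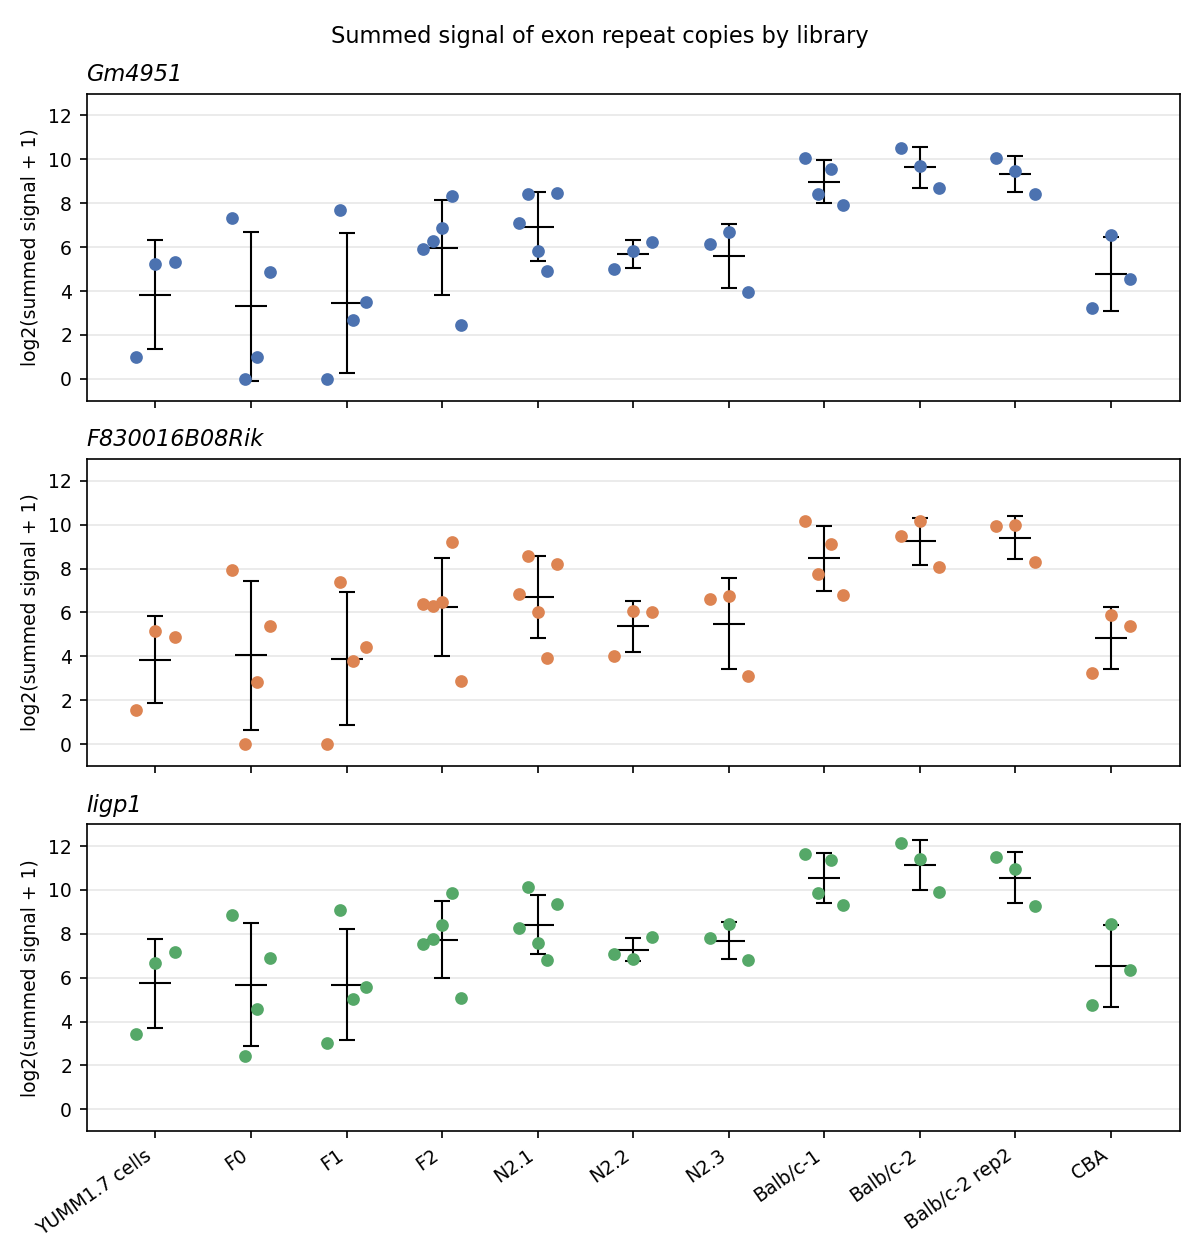
Log2(summed signal + 1) of the exon repeat copies of Gm4951, F830016B08Rik and Iigp1 in each of the 40 libraries (points) by group in passage order, with the mean and SD of the log2 values as bars. The Balb/c groups have the highest means. Their Iigp1 sums of 608 to 4560 overlap those of F2 (up to 939) and N2.1 (up to 1118), and the F0 and F1 tumours spread most.

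By group mean the Iigp1 sum ran from Balb/c-2 (2728 ± 1806, SD, n = 3) over Balb/c-1 (1843 ± 1263, n = 4), Balb/c-2 rep2 (1808 ± 1133, n = 3), N2.1 (475 ± 415, n = 5), F2 (343 ± 351, n = 5), N2.3 (228 ± 119, n = 3), N2.2 (161 ± 61.8, n = 3), F1 (157 ± 257, n = 4), CBA (153 ± 174, n = 3) and F0 (152 ± 214, n = 4) to YUMM1.7 cells (83.5 ± 67.2, n = 3). The ranges of each pair of neighbours in this order overlapped, and the same was true in the orders of Gm4951, of F830016B08Rik and of the ERVB4_1-I_MM copy. Over the YUMM1.7 mean, the Balb/c-1 means of the 3 genes were 22.1 to 23.5-fold higher and the Balb/c-2 means 32.7 to 35.5-fold higher. The Balb/c-2 tumours are also those of the rep2 libraries that chose the interval. In bulk RNA, a larger share of cells with the transcript and more transcript per cell cannot be told apart.

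Gm4841 was low in all groups. Its sum was 0, 5.05 and 0 in YUMM1.7 cells, 11, 7.89 and 0.757 in N2.3, 38.7, 14.1, 68.2 and 17.7 in Balb/c-1, 77.3, 58.3 and 18.3 in Balb/c-2 and 1.05, 10.9 and 10.6 in CBA. The Balb/c-1 and Balb/c-2 tumours were all above the YUMM1.7 and N2.3 libraries. They were not above all earlier tumours. F2 tumour C had 27.4 and N2.1 tumour B 22.5, more than Balb/c-1 tumours B and D and Balb/c-2 tumour C.

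The ERVB4_1-I_MM copy was at or near 0 in most early libraries. Its signal was 0, 4.04 and 9.66 in YUMM1.7 cells, 32.0, 0, 0 and 6.77 in F0 tumours A to D, and 0, 11.3, 0 and 1.88 in F1 tumours A, B, D and E. F2 tumours A to E gave 3.65, 5.47, 12.7, 87.0 and 0, N2.1 tumours 47.9, 47.1, 13.5, 6.18 and 67.0, and N2.2 tumours 7.91, 11.7 and 26.1. The copy thus had signal before the Balb/c groups, in 2 of 4 F0, 2 of 4 F1, 4 of 5 F2, all N2.1 and all N2.2 tumours. N2.3 tumours gave 21.2, 34.7 and 0, and Balb/c-1 tumours 211.9, 49.4, 95.1 and 8.32, so that Balb/c-1 D lay below 2 of the 3 N2.3 tumours. Balb/c-2 gave 200.6, 182.7 and 118, its second libraries 218, 141.5 and 103, and CBA 0, 12 and 2.35. The L1MdA_VII copy, with most of the F830016B08Rik signal, gave 77.1, 97.8 and 6.06 in N2.3, 958, 185, 457 and 92.6 in Balb/c-1, and 609, 939 and 223 in Balb/c-2.

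**Figure D3:**
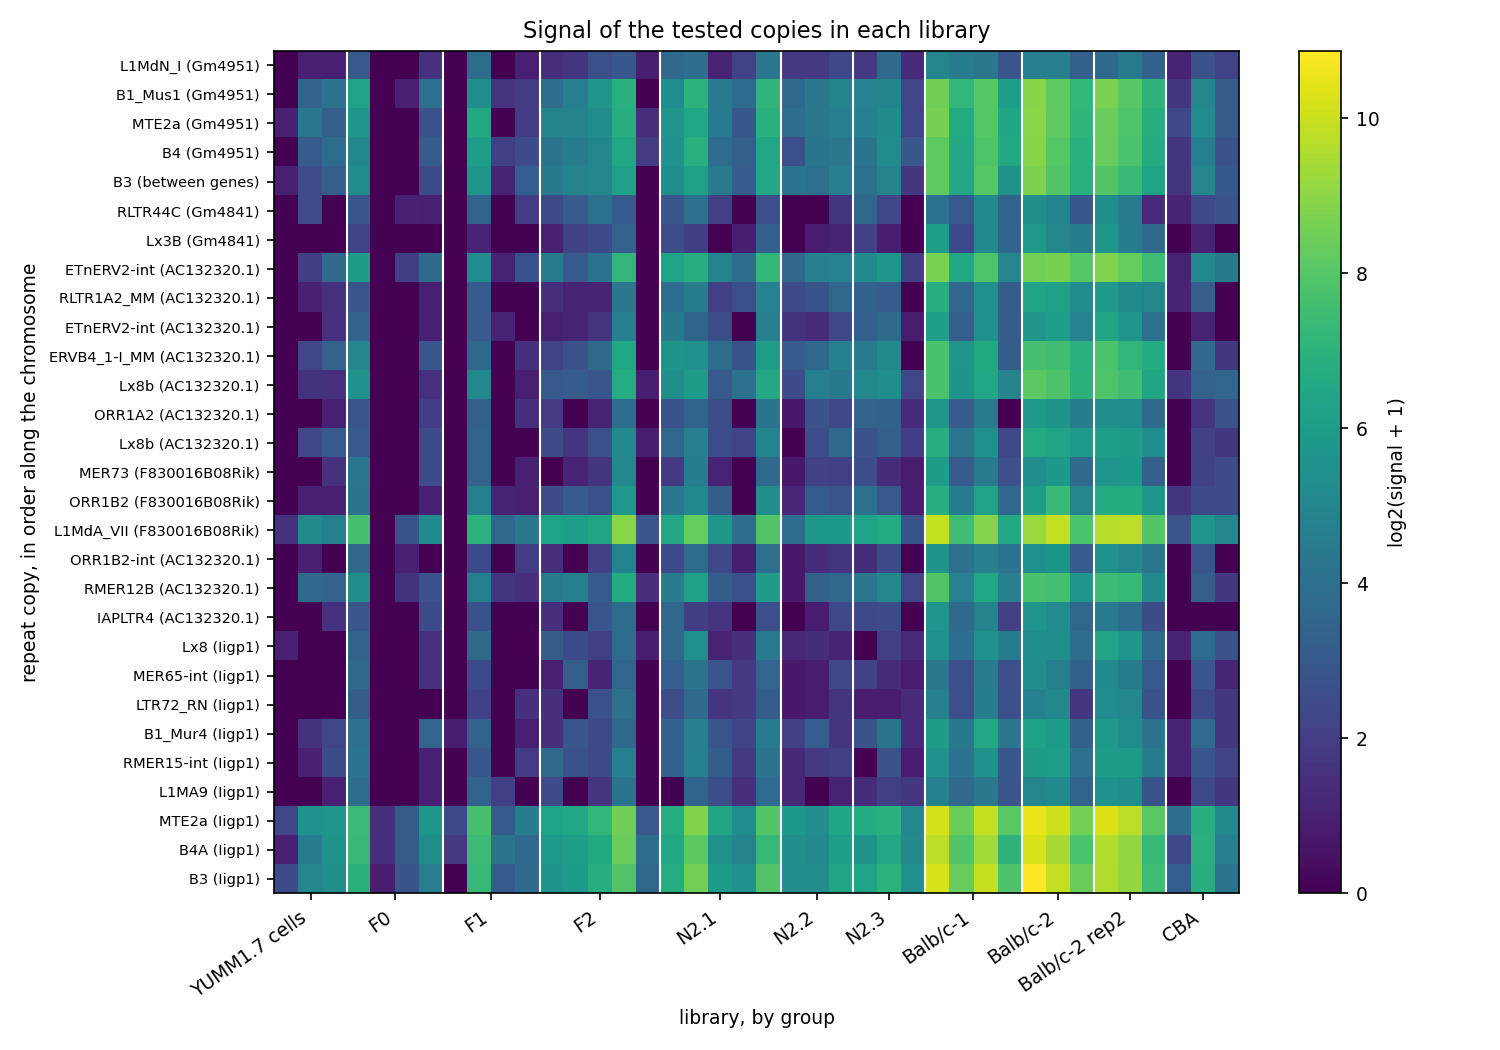
Log2(signal + 1) of the 29 tested copies (rows, in order along the chromosome) in the 40 libraries (columns, by group). Whole columns are light or dark: F0 B and F1 A are near 0 over the cluster, and the Balb/c libraries are high over nearly all copies.

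6 comparisons between groups were tested, which left F1 and N2.2 out of any pair. They used limma on log2(signal + 1), with Benjamini-Hochberg adjustment over all 33215 copies or all 7404 genes, and a feature was called where its adjusted p was under 0.05. The step from N2.3 to Balb/c-1 gave the only calls among the copies of the cluster, and none of the 4 was in an exon. Lx8 in Iigp1 rose from 0, 3.16 and 1.51 in N2.3 to 43.3, 14.1, 47.1 and 21.9 in Balb/c-1 (log2 fold change 3.74, SE 0.927). RMER15-int in Iigp1 rose from 0, 5.52 and 0.757 to 47.0, 16.8, 45.2 and 6.24 (3.36, SE 0.933, limma adjusted p = 0.0445). The other 2 called copies had means below 5 before the Balb/c groups (1.73 and 3.79) and were tested only because of their level in the Balb/c groups, so that their calls carry little weight. Lx3B in Gm4841 had 3.39, 0.789 and 0 in N2.3 and 65.4, 4.41, 35.6 and 10.4 in Balb/c-1 (3.31, SE 0.805, limma adjusted p = 0.0207). ORR1B2-int downstream of F830016B08Rik had 1.7, 4.73 and 0 and 47.9, 15.9, 25.9 and 16.7 (3.33, SE 0.938, limma adjusted p = 0.0470). For each of the 4 the groups did not overlap.

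Over all 29 members the estimates in Balb/c-1 against N2.3 ran from 0.63 (ORR1A2) to 3.74 with a median of 2.64, on the log2(signal + 1) scale, beside a median of -0.17 over all copies tested. The 4 calls are 13.8% of the members, beside 2.2% called over all copies. This share is raised by the filter, which 10 members passed only through the Balb/c groups. With the filter set on the libraries before Balb/c-1, 19 members were tested and 2 were called (Lx8 and RMER15-int), beside 2.12% of all copies. With CBA and Balb/c-2 rep2 left out of the fit, 2 of the 29 were called (Lx8 and Lx3B), while RMER15-int had a limma adjusted p of 0.0576 and ORR1B2-int of 0.053. In the fit with all libraries 25 of the 29 had an unadjusted p under 0.05, beside 5844 of all 33215 copies, and the filter raises this count too. Balb/c-1 lay above every N2.3 library for 16 of the 29 (55.2%), beside 5.46% of all copies. The filter raises this share as well, and the 16 are not separate observations, since the copies were high or low in the same tumours. The count of called members depended on the tool and on single tumours. With edgeR and with DESeq2 on the recovered reads, 2 members each were called. Leaving out N2.3 tumour C, Balb/c-1 tumour A or Balb/c-1 tumour C left 0 called. Leaving out N2.3 tumour A left 1, and leaving out Balb/c-1 tumour B left 2. The share of library signal in intronic copies was 22.2 to 26.6% in N2.3 and 18.4 to 24.6% in Balb/c-1, and with that share as a covariate none of the 29 was called.

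The host gene sums were not called in that step. Iigp1 had a log2 fold change of 2.85 (SE 1.20, limma adjusted p = 0.146), Gm4951 3.38 (SE 1.42, limma adjusted p = 0.143) and F830016B08Rik 2.97 (SE 1.46, limma adjusted p = 0.218), while 7.2% of all 7404 genes were called. All 4 Balb/c-1 tumours were above all 3 N2.3 tumours for each gene. The unadjusted p was under 0.05 for each of the 3, as it was for 1696 of all 7404 genes. With edgeR and with DESeq2 none of the 3 was called.

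Earlier and later steps gave no call among the 29 copies with limma, edgeR or DESeq2. From YUMM1.7 cells to F0 the estimates ran from -0.71 to 1.31, none of the 29 had an unadjusted p under 0.05, and 0% of all copies were called. From F0 to F2 they ran from -0.15 to 2.55 with a median of 1.21, 4 had an unadjusted p under 0.05, and 0.0391% of all copies were called. From F2 to N2.1, where 9.7% of all copies were called, they ran from -0.22 to 2.02 and 1 had an unadjusted p under 0.05. Without F2 tumour D that comparison called 1 member. From N2.1 to N2.3, with 1.4% of all copies called, the estimates were mostly below 0 (-2.31 to 0.11, median -0.94, 3 with an unadjusted p under 0.05). From Balb/c-1 to Balb/c-2, with 0% of all copies called, they ran from -0.15 to 1.98 and none had an unadjusted p under 0.05. Nothing is read from the direction of this last step, since Balb/c-2 shares its tumours with the rep2 libraries that chose the interval. In the order of these comparisons, 2854, 3122, 8226, 4347 and 3519 of all 33215 copies had an unadjusted p under 0.05. The share among the 29 was higher than that of all copies only from F0 to F2.

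The gene sums gave the same picture of wide estimates without calls. From F0 to F2 the log2 fold changes were 2.06 for Iigp1 (SE 1.05, limma adjusted p = 0.514), 2.68 for Gm4951 (SE 1.25, limma adjusted p = 0.463) and 2.2 for F830016B08Rik (SE 1.28, limma adjusted p = 0.561). Only that of Gm4951 had an unadjusted p under 0.05, beside 753 of all 7404 genes, and 0.216% of all genes were called. From YUMM1.7 cells to F0, with 0.0135% of genes called, the estimate was -0.06 for Iigp1 (SE 1.20), whose sign depends on single libraries. From F2 to N2.1 it was 0.69 for Iigp1 (SE 0.995), with 15% of genes called. From N2.1 to N2.3 it was -0.73 (SE 1.15), with 3.88% called. From Balb/c-1 to Balb/c-2 it was 0.61 (SE 1.20), with 0.135% called and the same reservation about Balb/c-2.

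An F test asked of each copy whether it varied over the 9 groups from YUMM1.7 cells to Balb/c-2. With limma all 29 members were called, beside 35.1% of all copies. Nothing is read from this count, since Balb/c-2 shares its tumours with the rep2 libraries that chose the interval and 10 members reached the filter only through the Balb/c groups. Without Balb/c-2 the F test called 25 of 29 (86.2%), beside 29.1% of all copies, and did not call RLTR44C, ORR1A2, MER73 and L1MA9. This count is raised by the filter too, since the same 10 members passed it only through the Balb/c groups and Balb/c-1 is kept. Over the 7 groups from YUMM1.7 cells to N2.3 it called 3 of 29 (10.3%), beside 22.2% of all copies: RLTR1A2_MM, an Lx8b copy at 60290416 and the B3 copy in the Iigp1 3′ UTR. The sums of Iigp1 (limma adjusted p = 0.000529), Gm4951 (0.00088) and F830016B08Rik (0.00952) were called over 9 groups, beside 52.6% of genes, with the same reservation about Balb/c-2. Without Balb/c-2 they were called as well (limma adjusted p of 0.00509, 0.00623 and 0.0458), beside 45% of genes. Over the 7 groups none of the 3 was called (limma adjusted p of 0.128, 0.0964 and 0.28), beside 34.6% of genes. Only Gm4951 of the 3 had an unadjusted p under 0.05, beside 3394 of all 7404 genes.

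The cluster varied widely between tumours of the same passage. The SE of the Balb/c-1 against N2.3 estimate was larger than that of 99.9% of all genes for Gm4951, of 99.9% for F830016B08Rik and of 99.6% for Iigp1, beside a median SE of 0.379. For the 29 copies this share was 96.2 to 99.8%. A wide spread was not particular to the cluster. The genes most like Iigp1 or the ERVB4_1-I_MM copy, named below, had an SE of 0.556 (Dtx3l) to 1.2 (Zbp1) in that comparison. The highest Iigp1 sum of a group was 107 times the lowest in F0, 77.0 times in F1, 28.7 times in F2, 10.0 times in N2.1 and 5.08 times in Balb/c-1, and 14.6 times among the YUMM1.7 cultures. The range within F0 alone was thus wider than the difference of 22.1-fold between the Balb/c-1 and YUMM1.7 means.

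The genes were high or low in the same tumours. Over the 40 libraries the log2 sums of Gm4951 and Iigp1 had a Pearson r of 0.988 and a Spearman rho of 0.987, and those of F830016B08Rik and Iigp1 had an r of 0.966 and a rho of 0.961. After subtraction of each group's mean, r was 0.977 and 0.943, and without the 2 libraries farthest from the Iigp1 median r was 0.985 and 0.956. The order of tumours was the same for the 3 genes in F0 (A, D, C, B), F1 (B, E, D, A), Balb/c-1 (A, C, B, D) and CBA (B, C, A). The 406 pairs of tested copies had an r of 0.713 to 0.985 (median 0.890), and 0.511 to 0.973 (median 0.799) after subtraction of group means. The intronic copies of Iigp1 followed its 3′ UTR copies with an r of 0.965. These are descriptions: the points share a library and its scaling factor, and 3 tumours occur in 2 libraries each. Reads shared between Gm4951 and Iigp1 would also raise their r. Most of the F830016B08Rik sum comes from the L1MdA_VII copy, which runs mostly past the GENCODE end of that gene.

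**Figure D4:**
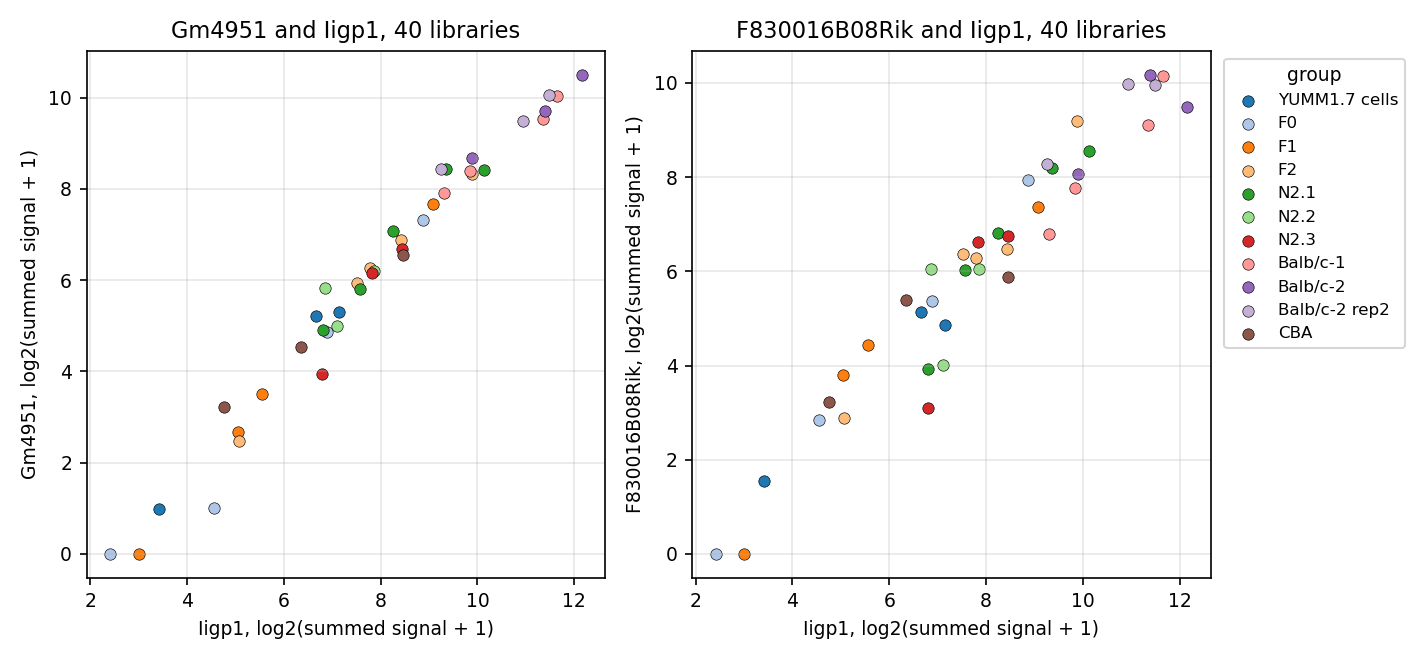
Log2(summed signal + 1) of Gm4951 and of F830016B08Rik against that of Iigp1, 1 point per library, by group. Points of all groups lie along 1 band (r of 0.988 and 0.966), with tumours of the same passage spread along it.

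In CBA, the group that chose the interval, the ratio of the Balb/c-2 rep2 mean to the CBA mean was 4.32 to 138 over the 29 copies, with a median of 14.1. IAPLTR4 was at 0 in all 3 CBA libraries. CBA lay below every rep2 library for 27 of the 29 (93.1%; all but RLTR44C and the Lx8 copy in Iigp1), beside 10.9% of all copies, and nothing is read from this, since the choice of the interval used it. For the gene sums, the rep2 means were 11.8 to 21.6-fold and the Balb/c-2 means 17.9 to 21.7-fold the CBA means. The F0 means were 0.997 to 2.04-fold the CBA means. The intron share was 24.6 to 27.3% in CBA and 17.8 to 19.5% in rep2, and its part in the difference was not tested.

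Other interferon GTPases, which lie outside the interval, were followed as the sums of their exon copies. Of 26 on the list, 18 had exon copies and 14 were tested. From N2.3 to Balb/c-1, 5 of the 14 rose and 0 fell, where 7.2% of all genes were called, and the median log2 fold change was 1.39, beside -0.06 over all genes. They were Mx1, which blocks replication of influenza viruses (22.6 ± 16.4, SD, n = 3, to 250.2 ± 122, n = 4, log2 fold change 3.56), Gbp5, a guanylate-binding protein (9.01 ± 0.502 to 107 ± 87.5, log2 fold change 3.02), and the GTPase genes 9930111J21Rik1 (3.20), 9930111J21Rik2 (2.94) and Gm12185 (2.96), with limma adjusted p of 0.0176 to 0.0487. The last 3 belong to a family of similar genes, so reads may be split between them. For each of these 3, N2.3 tumour C was the lowest N2.3 tumour. 9930111J21Rik1 had 61.9, 69.4 and 3.03 in N2.3, 100.9 to 488 in Balb/c-1 and up to 369 in N2.1. 9930111J21Rik2 had 307, 308 and 33.3 in N2.3, 623 to 1469 in Balb/c-1 and up to 1123 in N2.1. Without single tumours the count of called GTPases was 0 to 5, with the intron share as a covariate it was 2, and with CBA and Balb/c-2 rep2 left out of the fit it was 3, without Mx1 and Gbp5 (limma adjusted p of 0.0549 and 0.0602). N2.3 tumour C stood apart from tumours A and B for other guanylate-binding proteins, named here after their values were seen: Gbp8 was 823 against 5.08 and 0, Gbp4 786 against 65.2 and 82.0, and Gbp9 1202 against 305 and 371. The regulators did not pass: Irgm1 had a log2 fold change of 1.5 (limma adjusted p = 0.0802, means 553 and 1631) and Irgm2 of 1.03 (limma adjusted p = 0.521). Igtp and Gbp2, and Irf1 of the signalling list, were not among the tested genes. From F2 to N2.1, where 15% of all genes were called, only Irgm1 of the 14 rose (295 ± 136, n = 5, to 770.3 ± 518, n = 5, log2 fold change 1.33, limma adjusted p = 0.0372), a call that was absent with TMM or median-of-ratios factors.

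Of 55 interferon-stimulated effectors, 37 were tested. From N2.3 to Balb/c-1, 3 rose: Adar, which edits double-stranded RNA (log2 fold change 1.87), Ifit2, which binds foreign RNA (1.63), and Slfn9 (1.02), and none fell, with a list median of 1.24. These 3 are near the share of all genes called, 7.2%, and 1 to 4 effectors were called with single tumours left out. Adar was low, at 6.778, 2.367 and 3.028 in N2.3 and 18.43, 17.66, 24.98 and 8.324 in Balb/c-1. Ifit2 had 153.4, 145.9 and 385.4 in N2.3 and 426.6 to 938.6 in Balb/c-1, beside 358 to 615 in YUMM1.7 cells. Slfn9 had 823.8 to 1044 in N2.3 and 1525 to 2718 in Balb/c-1, beside 929.8 to 2118 in YUMM1.7 cells. For Ifit2 and Slfn9 the YUMM1.7 and Balb/c-1 ranges thus overlapped, unlike those of Iigp1. From F2 to N2.1, where 15% of all genes were called, 5 rose: Oas1g (2.63) and Oasl1 (2.1), of the oligoadenylate synthetase family, Isg15, a ubiquitin-like modifier (2.13), Herc6 (1.68) and the RNA-activated kinase Eif2ak2 (1.17). With TMM factors, median-of-ratios factors, edgeR or DESeq2 that count was 2. The median of all genes in this comparison was 0.13 with the deposited scaling and -0.09 with TMM factors, and for Balb/c-1 against N2.3 it was -0.06 and 0.10, so small changes depend on the scaling.

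Of 19 receptors and signalling genes 10 were tested: none rose or fell from N2.3 to Balb/c-1 (median 0.59). In that comparison 1 of the 10 had an unadjusted p under 0.05, beside 1696 of all 7404 genes. There edgeR and DESeq2 called 0, and limma with TMM or median-of-ratios factors called 1. From F2 to N2.1, 2 of them fell, the interferon receptor chain Ifnar1 (-0.65) and the kinase Tyk2 (-0.57), where 15% of all genes were called. Neither was called with the intron share as covariate (limma adjusted p of 0.0708 and 0.257), and that share was 14.3 to 24.4% in F2 and 21.7 to 26.7% in N2.1. Of 22 antigen presentation genes 13 were tested, and 1 fell from N2.3 to Balb/c-1, the class I gene H2-Q7 (14.0 ± 5.66, n = 3, to 0.751 ± 0.988, n = 4, log2 fold change -3.20, limma adjusted p = 0.0170), whose relatives are near copies. That 1 call of 13 is near the 7.2% called over all genes, and it was absent with DESeq2 and without N2.3 tumour B, N2.3 tumour C or Balb/c-1 tumour C. The list median was 0.03. From N2.1 to N2.3, where 3.88% of all genes were called, the 4 lists held 2 calls among 74 genes, Slfn5 higher (3.68) and Slfn9 lower (-0.99). In the other 3 comparisons limma called none of the 74 tested genes of the 4 lists, with 5 (F0 against YUMM1.7 cells), 25 (F2 against F0) and 7 (Balb/c-2 against Balb/c-1) at an unadjusted p under 0.05. Of all 7404 genes, 678, 753 and 1006 had such a p, in the same order. In these 3 comparisons edgeR called 0 of the list genes and DESeq2 called 1, in F2 against F0. The lists hold genes that are known to respond to interferon and were drawn up with results of these data known, so they lend no independent support to a direction.

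**Figure D5:**
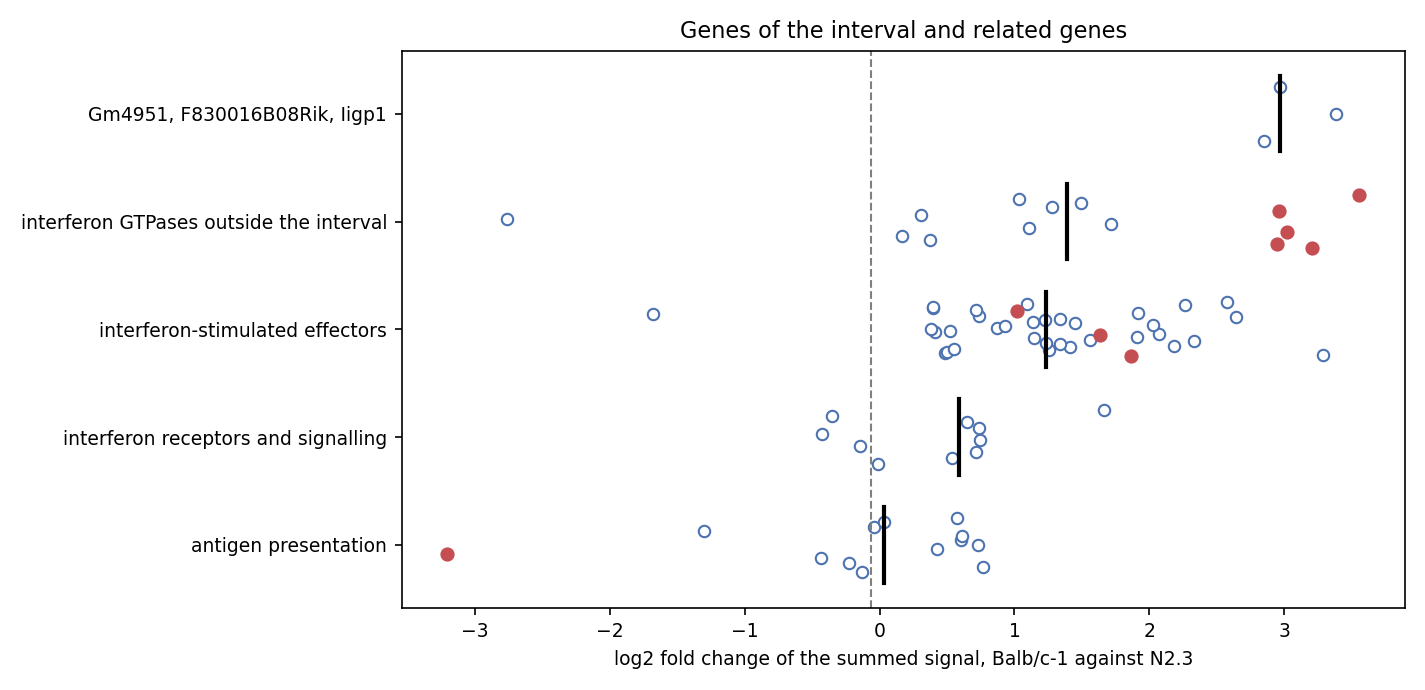
Log2 fold change of Balb/c-1 against N2.3 for Gm4951, F830016B08Rik and Iigp1 (top row) and for every tested gene of the 4 lists. Points are filled red where called and open where not. Black bars mark the median of each row, and the dashed line marks the median of all genes, -0.06. The GTPases (14 genes) and effectors (37) have medians of 1.39 and 1.24, and the antigen presentation genes (13) centre near 0.

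Among 4886 genes outside the interval with a mean sum of at least 20, the pattern most like that of Iigp1 over the 40 libraries was that of Gbp7 (Pearson r 0.966, Spearman rho 0.962), followed by Dtx3l, Irgm2, Ifi203, Xaf1 and Parp14 (r of 0.952 and above). The genes most like the ERVB4_1-I_MM copy were Dtx3l (r 0.941), Trim30a (0.930), Zbp1 (0.918), Trim30d, Trim12c and Sp100 (0.905). Of the tested genes, 9 of 14 GTPases, 30 of 37 effectors, 8 of 13 antigen presentation genes and 4 of 10 receptor and signalling genes had an r with Iigp1 above 0.8, beside 89 of all 7399 genes. All these r include CBA and Balb/c-2 rep2, the groups that chose the interval through the ERVB4_1-I_MM copy. Also, 3 tumours entered with a second library. The likeness is therefore a description with no test. Genes that followed Iigp1 need not have been called in a step: Gbp7 had a log2 fold change of 1.72 from N2.3 to Balb/c-1 (limma adjusted p = 0.191).

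Genes that flank the interval were followed in the same fit. The nearest 3 on each side with a mean sum of at least 20 were Prrc1, 4930511M06Rik and Isoc1 on the left and Smim3, Dctn4 and Rbm22 on the right. The left 3 lie between 57354741 and 58680368, far from the interval, and the right 3 between 60474191 and 60572810. From N2.3 to Balb/c-1, Isoc1 rose (559.5 to 863, log2 fold change 0.62, limma adjusted p = 0.0253) and the other 5 were not called. From N2.1 to N2.3, Smim3 rose (0.88, limma adjusted p = 0.0118). The median deviation of 206 exon copies elsewhere on chromosome 18 from that of all exon copies was -0.106 to 0.0913 log2 units over the 40 libraries.

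Markers of cells other than tumour cells were set beside the Balb/c-1 step. The leucocyte sum (6 of 10 markers with exon copies) was at most 0.789 in N2.3, 0.921 in Balb/c-1 and 2.24 in Balb/c-2, reached 15.5 in the rep2 libraries and was 2.35 to 6.28 in CBA. The sum of T and B cell markers (3 of 10) was 0 in all N2.3 libraries and at most 0.961 in Balb/c-1. The fibroblast sum (7 of 10) was 1517 to 2093 in N2.3, and the Balb/c-1 tumours ranged from 1730 to 3092. The Balb/c-2 libraries ranged from 1884 to 2977, the rep2 libraries from 2156 to 3186 and CBA from 1123 to 1792. The sum was carried by Pdgfra, Pdgfrb and Postn, while Col1a1, Dcn, Thy1 and Fap had means of at most 1.0. In the YUMM1.7 cultures, which are a cell line, the sum was 1645 to 2779. It therefore cannot be read as fibroblast content. The part of fibroblast content in the result was not tested.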

How the data were processed

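The authors' deposited table gives normalised signal for 835636 repeat copies in 40 libraries, on mm10. featureCounts 1.5.0-p3, HISAT2 2.0.5 and StringTie 1.3.3b stand in the submitters' processing notes. The sources used here do not give their roles, the repeat annotation, the strand setting or the treatment of reads with several matches. Each library's deposited signal is whole reads times 1 factor (the value of 1 read was 0.659 to 1.51), and 99.9995 to 100% of values per library came out whole within 0.1 read, so the reads were recovered and tested as alternatives. The labels name 2 sequencing periods without assigning libraries to them, so batch and group cannot be told apart. The library names of Balb/c-2 rep2 and CBA carry added tags that those of all other groups lack, and the labels do not say what the tags stand for. The protocols mention both directional and other libraries.

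Copies were assigned to GENCODE M21 genes with bedtools 2.31.1, exons before introns, and exon copies were summed per gene. RefSeq spans are of GRCm38.p6. Log2(signal + 1) of all 40 libraries was fitted with 11 group means in limma 3.58.1 (R 4.3.3; trended prior, two-sided, Benjamini-Hochberg over 33215 copies or 7404 genes with a mean of at least 5). Fold changes are on this scale and understate those of low copies. edgeR 4.0.16 and DESeq2 1.42.0 on recovered reads, other pseudocounts, filters and scalings, single tumours left out and covariates were alternatives, and the F tests over 8 and 7 groups, the fit without CBA and Balb/c-2 rep2 and the filter on libraries before Balb/c-1 were added after the data were seen. The 11-group fit counts the rep2 libraries, from tumours that Balb/c-2 also holds, as separate samples. The fits were tested on simulated data. Tables and plots used Python 3.11.15, pandas 2.3.3, numpy 2.4.6, scipy 1.17.1, biopython 1.88 (global alignment of coding sequences) and matplotlib 3.10.9.

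Members and gene lists were chosen with earlier results of these data known. Named are all copies with a mean of at least 5, the annotated genes that hold them, the called genes of each list (highest 3 and lowest 3, and more where a count was 5 or fewer), a few fixed interferon genes, the 6 genes most like Iigp1 and the ERVB4_1-I_MM copy by Pearson r, and the nearest 3 genes on each side with a mean sum of at least 20. Tumour letters name different tumours in each passage, except that the rep2 libraries come from the Balb/c-2 tumours: there, deviations of same-letter libraries had r of 0.155 to 0.255 and of other pairs -0.195 to -0.0563. A result for 1 gene of the lists is not reported here.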

Additional observations from a re-analysis of the deposited data

Results flagged for a closer look

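Of 20 checks for a tumour that stands apart from the others of its group, 7 found one. The checks used the signal itself and not its log2 value. A high tumour is flagged easily on that scale, so a chance rate of 1 in 20 does not apply and nothing is read from the count of 7. Each value is the gap to the nearest tumour as a share of the range of the group. In F1, tumour B stood apart for Gm4951 (0.949, signal 204), Iigp1 (0.927, signal 541), F830016B08Rik (0.874, signal 164) and the ERVB4_1-I_MM copy (0.833, signal 11.3). In F2, tumour D stood apart for F830016B08Rik (0.86, signal 585) and the ERVB4_1-I_MM copy (0.855, signal 87.0). In F0, tumour A stood apart for F830016B08Rik (0.834, signal 245). The 7 are not independent, since the genes are high in the same tumours.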

How the results depend on the processing

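The count of 4 copies called in Balb/c-1 against N2.3 became 2 with a pseudocount of 0.5, without a filter, with edgeR, with DESeq2 or with only the 2 groups, 7 with a pseudocount of 4, and 0 with a mean of at least 20 or the intron share as covariate, and was 0 to 3 with single tumours left out. It was 2 with CBA and Balb/c-2 rep2 left out of the fit and 2 with the filter on libraries before Balb/c-1, both added after the data were seen. With that filter the F test over 9 groups called 19 of 19. With the tumour letter as a replicate block it was 3; letters name different tumours there (same-letter r of -0.0523 to 0.0363), so the block stands for no pairing. Single tumours left out gave 0 to 1 in N2.1 against F2, and no filter gave 1 in Balb/c-2 against Balb/c-1. The 29 copies of the F test over 9 groups became 55 at a mean of at least 1, 13 at 20, 53 without a filter and 3 without Balb/c-1 and Balb/c-2 (28 to 29 with single libraries left out). Host sums in Balb/c-1 against N2.3 gave 1 call (Gm4951) with only the 2 groups.

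For the lists in N2.1 against F2, GTPases (1) gave 2 with a pseudocount of 0.5, edgeR, DESeq2 or only the 2 groups and 0 without a filter, with TMM or with median-of-ratios factors (0 to 2 with single tumours left out). Effectors (5) gave 2 without a filter, with TMM, median-of-ratios, edgeR, DESeq2 or only the 2 groups (2 to 7). Receptors (2) gave 0 with the intron share (1 to 2), and antigen presentation (0) gave 1 with a pseudocount of 4 and 2 with edgeR or DESeq2 (0 to 2). In Balb/c-1 against N2.3, GTPases (5) gave 3 with a pseudocount of 0.5 or a mean of at least 1, 2 with the intron share and 3 without CBA and Balb/c-2 rep2 in the fit (0 to 5), and effectors (3) gave 5 with a pseudocount of 4 or DESeq2 (1 to 4). Receptors (0) gave 1 with a pseudocount of 4, a mean of at least 20, TMM, median-of-ratios, values relative to chromosome 18 or no CBA and Balb/c-2 rep2 in the fit (0 to 1). Antigen presentation (1) gave 2 at a mean of at least 1, without a filter or with TMM, and 0 at 20, with DESeq2 or with the filter before Balb/c-1 (0 to 1). Over the 4 lists, F2 against F0 (0) gave 1 with DESeq2 (0 to 1), N2.3 against N2.1 (2) gave 1 at a mean of at least 20, with TMM, median-of-ratios or only the 2 groups and 4 with edgeR or DESeq2 (1 to 2), and Balb/c-2 against Balb/c-1 (0) gave 1 with a pseudocount of 4, a mean of at least 1, no filter, the intron share or no CBA and Balb/c-2 rep2 in the fit.

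Some uncalled estimates changed sign. Iigp1 in F0 against YUMM1.7 cells (-0.06) was 0.0103 with a pseudocount of 4, 0.868 with edgeR, 0.866 with DESeq2, 0.596 with the intron share, 0.00538 with intron copies added and -1.22 to 1.03 with single libraries left out. Gm4951 there (-0.53) was 0.908, 0.901 and 0.241 with edgeR, DESeq2 and the intron share and -1.96 to 0.566 with libraries left out. F830016B08Rik was -1.11 to 1.53 there and -0.378 to 1.2 in N2.1 against F2, and ORR1A2 in Balb/c-1 against N2.3 was -0.169 to 1.74. In the cases above the cause was not tested. With few reads in the lowest libraries, small differences at the low end are not detectable.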
